A study of Mus musculus with 11 samples.

Results

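Cholesterol synthesis, uptake and efflux were followed through 31 genes in RNA sequenced from whole mouse liver. The genes were taken by symbol from the deposited table of 55414 genes, and all 31 were found and passed the filter on low counts. They comprised 20 enzymes of synthesis, 4 genes of SREBP2 control, 2 of uptake and transfer, 3 efflux transporters and 2 enzymes that esterify cholesterol. The 11 livers came from male Clec4f-DTR mice, so that the chow controls carried the allele too. In this allele the Clec4f promoter drives the receptor of diphtheria toxin (DT), and Clec4f marks Kupffer cells, the macrophages that reside in liver. Diets began at 8 weeks of age and lasted 16 weeks. The chow group held 3 livers. On western diet with alcohol there were 4 livers with serial injections of saline, here called saline livers, and 4 with serial injections of DT, here called DT livers. The chow titles name no injections, so diet and injection cannot be told apart in comparisons with chow. All groups carried the allele, so the toxin itself and the removal of Kupffer cells cannot be told apart here.

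Cells build cholesterol from acetyl-CoA through mevalonate, isoprenoid diphosphates, squalene and lanosterol. When sterols are scarce in the endoplasmic reticulum, the carrier SCAP brings the membrane-bound transcription factor SREBP2 to the Golgi, where cleavage frees it to switch on the synthesis genes; when sterols are plentiful, INSIG proteins hold SCAP back. Oxysterols, which accompany sterol excess, activate the nuclear receptor LXR, whose targets include the efflux transporters. The liver is a main site of all these steps and disposes of cholesterol into bile.

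Promoter sequence is shown for 5 places because SREBP2 acts on the synthesis genes and LXR on the transporters through DNA near such genes. The sequences are RefSeq promoter windows on GRCm38.p6, the 250 bases before an annotated start, written on the gene's strand, and 26 of the 31 genes had at least 1 window. Capitals mark matches to the sterol regulatory element letters TCACNCCAC or to the NF-Y box CCAAT, which reads ATTGG where it lies on the other strand. The Hmgcs1 window at chr13:119690101-119690350 (+ strand) held both motifs, and it is shown with those of Idi1 at chr13:8885356-8885605 (+ strand), Cyp51 at chr5:4104698-4104947 (- strand) and Srebf2 at chr15:82147019-82147268 (+ strand), genes called lower in at least 1 comparison with chow. The last line is the whole interval of 109 bases between the divergent starts of Abcg5 and Abcg8 at chr17:84683012-84683120 (+ strand), a pair called higher in saline against chow livers.
Hmgcs1 promoter: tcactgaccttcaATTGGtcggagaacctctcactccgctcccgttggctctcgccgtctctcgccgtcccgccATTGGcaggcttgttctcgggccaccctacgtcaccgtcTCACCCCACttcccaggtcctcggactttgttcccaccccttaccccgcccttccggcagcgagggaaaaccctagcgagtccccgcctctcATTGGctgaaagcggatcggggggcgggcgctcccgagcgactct
Idi1 promoter: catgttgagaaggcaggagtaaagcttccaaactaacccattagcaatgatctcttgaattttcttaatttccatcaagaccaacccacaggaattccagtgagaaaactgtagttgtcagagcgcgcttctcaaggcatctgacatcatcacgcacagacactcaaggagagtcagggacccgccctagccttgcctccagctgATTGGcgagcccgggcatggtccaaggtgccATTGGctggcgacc
Cyp51 promoter: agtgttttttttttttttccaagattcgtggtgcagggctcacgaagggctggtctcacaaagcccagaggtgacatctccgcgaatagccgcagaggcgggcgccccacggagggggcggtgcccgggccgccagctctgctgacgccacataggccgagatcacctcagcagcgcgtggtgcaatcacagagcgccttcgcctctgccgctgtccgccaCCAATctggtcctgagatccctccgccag
Srebf2 promoter: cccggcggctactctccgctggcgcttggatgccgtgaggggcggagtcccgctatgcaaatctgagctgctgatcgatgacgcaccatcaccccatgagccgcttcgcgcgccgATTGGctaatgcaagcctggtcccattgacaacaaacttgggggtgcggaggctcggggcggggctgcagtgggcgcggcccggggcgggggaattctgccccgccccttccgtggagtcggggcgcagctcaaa
Abcg5-Abcg8 interval: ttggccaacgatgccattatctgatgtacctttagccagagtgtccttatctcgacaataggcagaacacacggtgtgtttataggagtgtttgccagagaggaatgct

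Both strands of each window were searched. The sterol regulatory element letters were found in 1 of 26 genes, Hmgcs1, as TCACCCCAC at bases -137 to -129 from the start, against 1.22% of the 27025 genes with a window. The NF-Y box, bound by a factor known to work beside SREBP2, was found in 22 of 26 genes (84.6%), against 37.5% of all genes. By role it was in 6 of 7 mevalonate genes, 10 of 10 genes of the squalene and sterol steps, 3 of 4 genes of SREBP2 control and 1 of 3 transporters. The LXR element DR4, AGGTCA repeated on the same strand after any 4 bases, was found in 0 of 26 genes and in 0.0148% of all genes. The search covered these letters in these windows only, and a match is not a measured binding site.

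The 11 libraries held 43995217 to 58089531 counts. Levels are given as CPM, the count as a share of its library on a fixed scale, after TMM scaling, which sets most genes level between libraries, and 3 counts correspond to 0.0398 to 0.0773 CPM. Hepatocyte markers summed to 67750 to 122900 CPM, although the extraction text in the labels describes sorted CD45-positive cells. Clec4f was at 6.18 to 15.2 CPM in DT livers and at 37.1 to 50.3 CPM in the other 7. DT liver 2 stood apart from DT livers 1, 3 and 4: its 5 bile duct markers summed to 27.8 CPM against 221 to 395, its 7 stellate cell and fibroblast markers to 234 CPM against 573 to 673, and its 8 macrophage and monocyte markers to 207 CPM against 385 to 505. Its 6 Kupffer cell markers summed to 184 CPM against 111 to 155 CPM in DT livers 1, 3 and 4. Called differences of the 31 genes that involve DT livers are therefore given with all DT livers and without DT liver 2. Some differences that were not called are left out. Scaling by total counts alone shifted the median log2 fold change of all genes by 0.13 for saline against chow, 0.36 for DT against saline and 0.44 for DT against chow, so small differences in DT livers depend on the scaling. Every call was repeated under 22 alternatives, 11 of which left out 1 liver each. In bulk RNA, fewer cells of a type and less RNA per cell cannot be told apart.

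A gene is called, and is said to have risen or fallen, where its Benjamini-Hochberg adjusted p over all 17038 tested genes was below 0.05 in edgeR's quasi-likelihood test. The 31 genes were chosen with earlier results of these data known. The shares of all genes set beside their counts, here and below, are therefore given for scale and are not a test. In saline against chow livers, 15 of the 31 genes were called, against 5.58% of all genes tested. Of these 12 fell, against 3.13%, and 3 rose, against 2.45%. The 12 were 10 synthesis enzymes with Srebf2 and Insig2, and the 3 were the transporters Abca1, Abcg5 and Abcg8. The median log2 fold change of the 31 genes was -0.63, against 0.0016 over all genes. In 18 of the 31 genes every saline liver was below every chow liver (15.6% of all genes) and in 6 every saline liver was above (14.8%).

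In DT against saline livers, which share the diet, 10 of the 31 genes were called (21.9% of all genes). Of these 9 fell (7.62%) and 1, Sqle, rose (14.3%). The 9 were Acat2, Fdft1, Tm7sf2, Hsd17b7, Sc5d, Stard4 and the 3 transporters. Their count moved with a liver and with the scaling. Without DT liver 2, 11 genes fell (17.7% of all genes) and 6 rose (22.6%), the 6 being Sqle, Dhcr7, Lbr, Lss, Soat1 and Srebf2. Without DT liver 3, 4 genes fell (3.73%) and 0 rose (7.73%) by edgeR. Under total count scaling 5 fell (2.62%) and 6 rose (30.4%). With all 4 DT livers, 3 genes were higher and 12 lower at an unadjusted p below 0.05, while DESeq2 called 1 higher (15.5% of all genes with an adjusted p) and 10 lower (7.72%), and limma-voom called 0 higher (9.69%) and 8 lower (8.56%). No gene had every DT liver above every saline liver (9.33% of all genes), and 7 had every DT liver below (9.97%).

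In DT against chow livers, 21 genes were called (23.0% of all genes), of which 19 fell (8.16%) and 2 rose, Abcg5 and Soat1 (14.8%). The median log2 fold change was -0.73, against -0.02 over all genes. Without DT liver 2 the counts were 19 lower (18.3%) and 3 higher (22.0%), and under total count scaling they were 9 lower (1.99%) and 5 higher (36.4%). In 21 genes every DT liver was below every chow liver (14.4%), and in 2 every DT liver was above (14.8%). This comparison shares its chow livers with saline against chow and its DT livers with DT against saline. Across the 3 comparisons, 9 genes were lower in both comparisons with chow and not called between the diet groups (Cyp51, Idi1, Insig2, Lss, Msmo1, Mvk, Nsdhl, Pmvk and Srebf2).

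**Figure D1:**
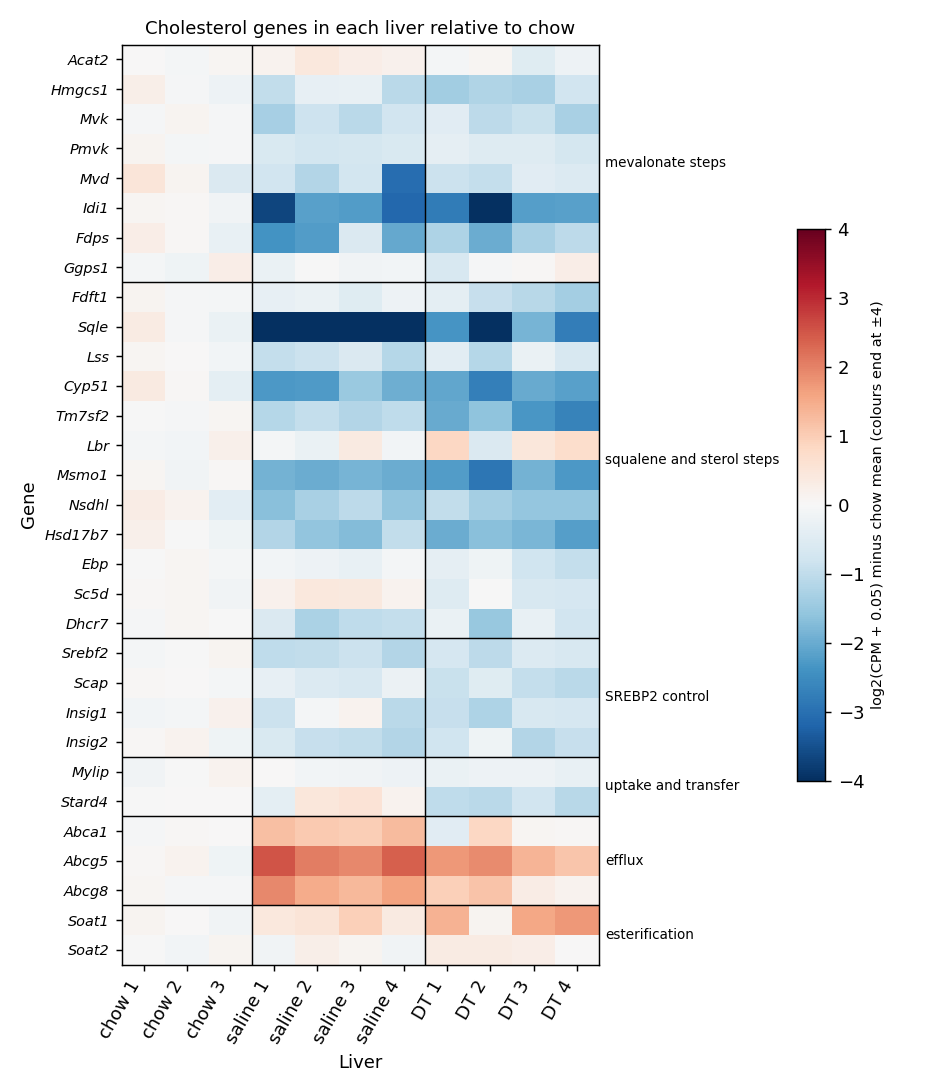
Heat map of the 31 genes (rows, grouped by role) in the 11 livers (columns). Colour is log2(CPM + 0.05) minus the mean of the 3 chow livers, with colours ending at 4 log2 units either way; most synthesis rows are blue in saline and DT livers, the efflux rows are red in saline livers, and Sqle is past the end of the scale in all 4 saline livers and in DT liver 2.

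**Figure D2:**
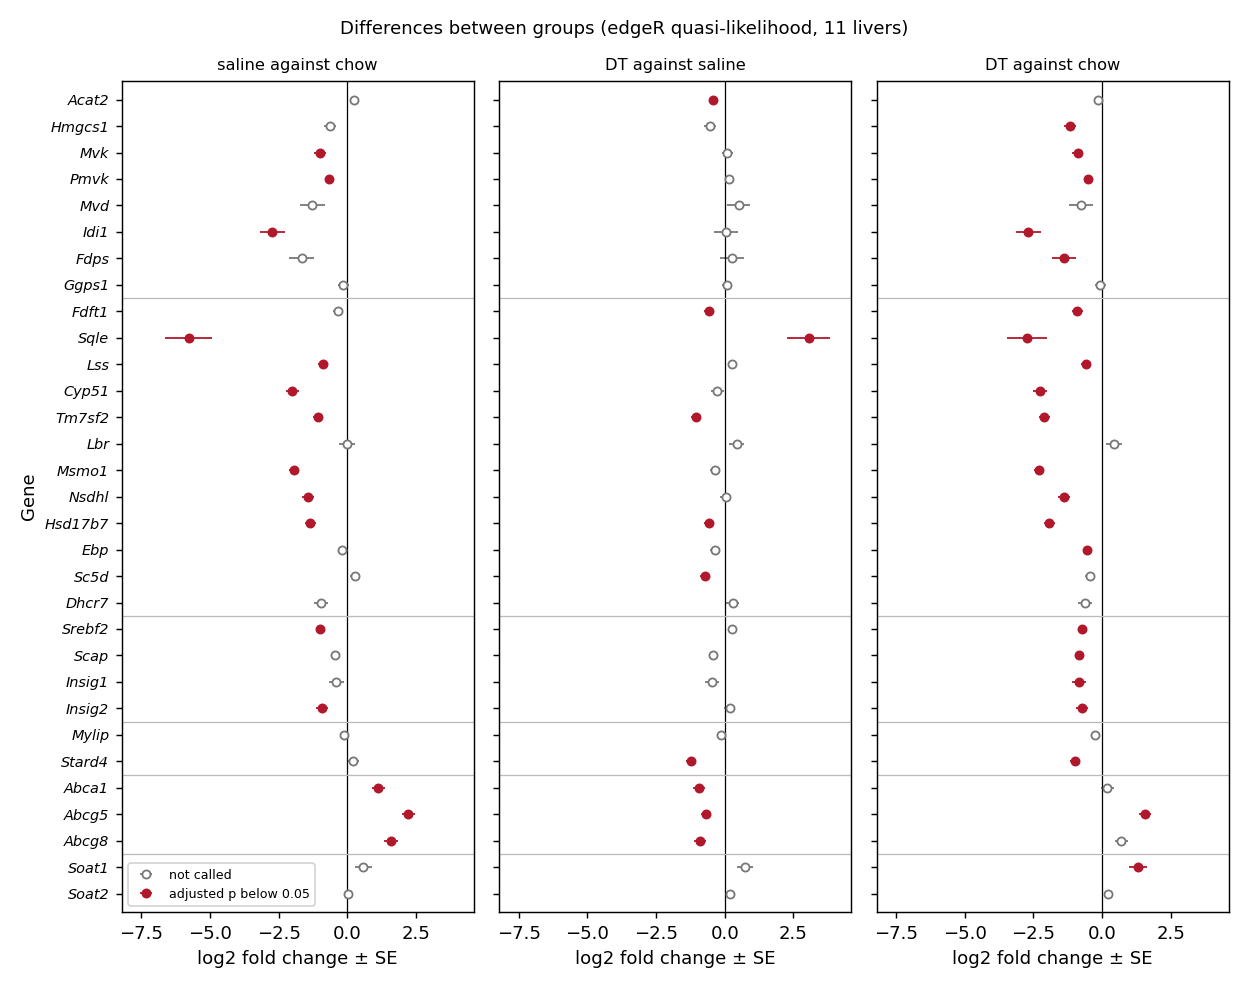
Log2 fold change of each of the 31 genes in the 3 comparisons, with bars of 1 SE from edgeR over 11 livers, and filled points where the adjusted p was below 0.05. In saline against chow the 12 filled points left of 0 are synthesis genes, Srebf2 and Insig2, and the 3 right of 0 are the transporters, which lie left of 0 in DT against saline.

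Of the 8 genes of the mevalonate steps, 3 fell in saline against chow livers, with a median log2 fold change of -0.83, and 5 fell in DT against chow livers. Acat2, the acetyl-CoA acetyltransferase of the first condensation, was the gene that fell in DT against saline livers. Hmgcs1 encodes the cytosolic HMG-CoA synthase, the next step. It was at 112, 93.1 and 83.8 CPM in the 3 chow livers, at 48.6, 77.0, 78.3 and 44.95 in saline livers 1 to 4, and at 36.2, 41.2, 38.9 and 56.0 in DT livers 1 to 4. Every chow liver was above every other liver, while saline and DT livers overlapped. The fall in DT against chow livers had a log2 fold change of -1.16 (SE 0.22, adjusted p = 0.00615), and -0.69 (adjusted p = 0.0489) under total count scaling. It was -1.14 (adjusted p = 0.00456) without DT liver 2. Saline against chow gave -0.63 (SE 0.22, adjusted p = 0.126) and DT against saline -0.53 (SE 0.21, adjusted p = 0.0844), or -0.51 without DT liver 2.

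Mvk and Pmvk, the kinases that phosphorylate mevalonate in turn, were both lower than in chow. Pmvk was at 18.9, 16.9 and 17.2 CPM in chow livers, 11.5, 10.58, 10.76 and 11.5 in saline livers, and 13.7, 12.4, 12.2 and 10.9 in DT livers. The chow livers stood above the rest without overlap. Pmvk fell by 0.68 on the log2 scale in saline against chow livers (SE 0.11, adjusted p = 0.00605) and by 0.52 in DT against chow livers (SE 0.11, adjusted p = 0.00863). The latter call ended under total count scaling, at -0.06 (adjusted p = 0.748), and the value was -0.52 without DT liver 2. Mvk was at 8.65 to 9.64 CPM in chow livers and at 3.59 to 6.61 CPM in the other 8. Its log2 fold change was -0.99 in saline against chow (SE 0.21, adjusted p = 0.021) and -0.89 in DT against chow (SE 0.21, adjusted p = 0.0138). The first call ended without any 1 of the 3 chow livers and without saline liver 1 or 3 (adjusted p from 0.0596 to 0.0925), and the other without chow liver 2 (adjusted p = 0.0555). Under total count scaling both ended, at -0.87 (adjusted p = 0.0564) and -0.42 (adjusted p = 0.167), and without DT liver 2 the second was -0.84 (adjusted p = 0.0111).

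Idi1, the isomerase that interconverts the isoprenoid building blocks, had the largest fall of the mevalonate steps in both comparisons with chow. It was at 7.21, 6.98 and 6.21 CPM in chow livers, 0.489, 1.46, 1.39 and 0.724 in saline livers, and 0.925, 0.375, 1.43 and 1.46 in DT livers. The lowest chow liver was above the highest of the others, and the diet groups covered nearly the same range. Idi1 fell by 2.74 in saline against chow livers (SE 0.45, adjusted p = 0.00656), a 6.66-fold difference, and by 2.69 in DT against chow livers (SE 0.45, adjusted p = 0.00422). Between DT and saline livers the log2 fold change was 0.05 (SE 0.42, adjusted p = 0.945). Leaving out DT liver 2, the DT values were -2.42 against chow (adjusted p = 0.000423) and 0.32 against saline (adjusted p = 0.486). These levels rested on 18 to 110 counts per liver in the diet groups and 269 to 341 in chow. Of the 50-base words of Idi1, 21.3% occur in 4 other genes, and the one sharing the most of them is a processed pseudogene, so reads could have been split or dropped.

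The other mevalonate genes were less clear. Fdps, the farnesyl diphosphate synthase, was at 2.26 to 3.32 CPM in chow livers and 0.489 to 1.87 CPM in saline livers, with a log2 fold change of -1.66 that missed the threshold (SE 0.45, adjusted p = 0.0548). It was called without saline liver 3, at -2.30 (adjusted p = 0.00827). Fdps fell by 1.40 against chow in DT livers (SE 0.45, adjusted p = 0.0426), and the call ended without any 1 of the chow livers, saline liver 4, or DT liver 1, 3 or 4 (adjusted p from 0.0526 to 0.129). It also ended under total count scaling (-0.90, adjusted p = 0.162), with upper quartile factors (adjusted p = 0.0598) and with a replicate block (adjusted p = 0.0746), and the value was -1.23 (adjusted p = 0.0457) without DT liver 2. Acat2 was at 22.8 to 27.5 CPM in saline livers and 14.6 to 21.5 CPM in DT livers (log2 fold change -0.42, SE 0.12, adjusted p = 0.0342). That call ended without chow liver 1, any saline liver, or DT liver 3 or 4 (adjusted p from 0.051 to 0.102), and with total count scaling (-0.09, adjusted p = 0.553), and was made in 10 of the 22 alternatives. The value was -0.50 (adjusted p = 0.00606) without DT liver 2. Acat2 shares 45.9% of its 50-base words with its neighbour in sequence, Acat3. Mvd, the decarboxylase of the pathway, was at 2.45 to 5.18 CPM in chow livers and 0.405 to 2.19 in saline livers without a call (-1.28, SE 0.45, adjusted p = 0.13), and was not called in DT livers with or without DT liver 2. Ggps1, which makes the diphosphate used to prenylate proteins, was at 5.22 to 9.84 CPM over all 11 livers, with no call with or without DT liver 2.

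Of the 12 genes of the squalene and sterol steps, 7 fell in saline against chow livers and 9 in DT against chow livers, where their median log2 fold change was -1.14. Sqle, the squalene epoxidase and a rate-limiting enzyme of this branch, had the largest difference of the 31 genes in saline against chow livers. It was at 15.3, 11.95 and 10.1 CPM in chow livers, 0.204, 0.203, 0.439 and 0.0426 in saline livers, and 2.36, 0.0832, 3.32 and 1.75 in DT livers. Counts were 438 to 596 in chow livers, 10, 10, 24 and 2 in saline livers, and 158, 4, 235 and 132 in DT livers. The exact 95% Poisson interval ran from 0.00516 to 0.154 CPM in saline liver 4 and from 0.0227 to 0.213 CPM in DT liver 2. It takes every count as a separate fragment, so it is too narrow if both mates of a pair were counted. By its CPM, DT liver 2 lay among the saline livers, while DT livers 1, 3 and 4 lay above all saline livers and below all chow livers.

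Sqle fell by 5.77 on the log2 scale in saline against chow livers (SE 0.86, adjusted p = 0.00413), a 54.6-fold difference in the fit. Against saline livers it rose by 3.05 in DT livers (SE 0.79, adjusted p = 0.0202), and by 3.43 (adjusted p = 0.000209) without DT liver 2. The rise was not called without saline liver 1, 2 or 4 or DT liver 3 (adjusted p from 0.0552 to 0.0618), nor by limma-voom (adjusted p = 0.173), and was called in 15 of the 22 alternatives. Against chow livers Sqle fell by 2.72 in DT livers (SE 0.73, adjusted p = 0.0215). That call ended without any 1 of the chow livers or DT liver 4 (adjusted p from 0.0511 to 0.0749), and the value was -2.33 (adjusted p = 0.00119) without DT liver 2. In DT liver 2, Sqle and the summed bile duct, stellate cell and fibroblast, and macrophage and monocyte markers were low together. In DT livers 1, 3 and 4 the bile duct markers summed to 344, 221 and 395 CPM, where Sqle was at 2.36, 3.32 and 1.75 CPM. The part of these cells in the Sqle difference was not tested.

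Fdft1, the squalene synthase that commits farnesyl units to sterols, fell with DT. It was at 66.6, 59.7 and 57.8 CPM in chow livers, 48.3, 51.1, 44.05 and 52.9 in saline livers, and 46.6, 32.6, 28.7 and 23.8 in DT livers. The groups fell into that order, with DT liver 1 inside the saline range. Fdft1 fell by 0.58 in DT against saline livers (SE 0.17, adjusted p = 0.0358) and by 0.90 in DT against chow livers (SE 0.19, adjusted p = 0.00795). The first call ended without chow liver 2, any saline liver, or DT liver 3 or 4 (adjusted p from 0.0519 to 0.123). With total count scaling both calls were lost (adjusted p = 0.306 and 0.0839). With DT liver 2 left out, the values were -0.57 (adjusted p = 0.0335) and -0.89 (adjusted p = 0.00503). Fdft1 overlaps Ctsb on the opposite strand, and without a stated strand setting their reads cannot be told apart.

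Cyp51, the lanosterol demethylase, was at 57.5, 46.2 and 34.8 CPM in chow livers, 9.21, 9.27, 16.2 and 11.5 in saline livers, and 10.66, 6.70, 11.1 and 10.1 in DT livers. Chow livers were above all the rest, and the diet groups overlapped. It fell by 2.00 in saline against chow livers (SE 0.24, adjusted p = 0.00133) and by 2.26 in DT against chow livers (SE 0.24, adjusted p = 0.000903). Between DT and saline livers it was not called (-0.26, SE 0.22, adjusted p = 0.418). Cyp51 without DT liver 2 gave -2.12 against chow (adjusted p = 7.52e-05) and -0.12 against saline. Lss, the cyclase that makes lanosterol, was at 20.3 to 22.7 CPM in chow livers, 9.92 to 14.5 in saline livers and 9.84 to 17.9 in DT livers. It fell by 0.87 in saline against chow livers (SE 0.19, adjusted p = 0.0211), a call that ended without any 1 of the chow livers or saline liver 1, 2 or 4 (adjusted p from 0.0531 to 0.0954) and under total count scaling (-0.75, adjusted p = 0.113). Its fall of 0.59 in DT against chow livers (SE 0.19, adjusted p = 0.0432) ended without any 1 of the chow livers, saline liver 1 or 2, or DT liver 4 (adjusted p from 0.0587 to 0.124), by DESeq2 (adjusted p = 0.0505), and with total count scaling (-0.10, adjusted p = 0.776), and was called in 8 of the 22 alternatives. Lss without DT liver 2 was at -0.44 against chow (adjusted p = 0.0323) and was called higher than in saline livers, at 0.43 (adjusted p = 0.0279).

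Tm7sf2 and Lbr both encode sterol reductases of the step after Cyp51, and they differed in course. Tm7sf2 was at 66.7, 64.2 and 70.2 CPM in chow livers, 30.2, 34.96, 30.02 and 33.1 in saline livers, and 16.4, 22.1, 13.2 and 10.5 in DT livers. The 3 groups did not overlap, and DT liver 2 was the DT liver nearest to the saline livers. Tm7sf2 fell by 1.06 in saline against chow livers (SE 0.20, adjusted p = 0.0106), by 1.05 in DT against saline livers (SE 0.19, adjusted p = 0.00673) and by 2.11 in DT against chow livers (SE 0.20, adjusted p = 0.000483). All 3 calls held in each of the 22 alternatives, including every refit without 1 liver and total count scaling. The DT values were -1.26 against saline and -2.33 against chow without DT liver 2. Lbr, which is also a protein of the nuclear envelope, was at 5.85 to 7.29 CPM in chow, 5.35 to 8.25 CPM in saline, and 11.3, 4.27, 8.67 and 10.4 CPM in DT livers. It was not called with all livers (DT against saline 0.44, SE 0.26, adjusted p = 0.246), and without DT liver 2 it was called higher, at 0.66 against saline (adjusted p = 0.00974) and 0.66 against chow (adjusted p = 0.0146). Per kb of exon, the level of Tm7sf2 was 10.4 to 11.9 times that of Lbr in chow livers, 3.93 to 7.07 times in saline livers, and 1.56, 5.60, 1.65 and 1.10 times in DT livers 1 to 4.

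Msmo1, Nsdhl and Hsd17b7 act in turn to remove methyl groups from the sterol ring, and all fell in saline against chow livers. Msmo1 was at 42.1, 36.1 and 40.7 CPM in chow livers, 10.68, 9.84, 10.8 and 10.01 in saline livers, and 8.39, 5.33, 10.5 and 8.09 in DT livers. The saline livers lay within 1 CPM of each other and far from chow. Msmo1 fell by 1.94 in saline against chow livers (SE 0.18, adjusted p = 0.000401) and by 2.29 in DT against chow livers (SE 0.18, adjusted p = 0.000319). Between DT and saline livers the value was -0.35 (SE 0.17, adjusted p = 0.146). Msmo1 without DT liver 2 gave -2.14 against chow (adjusted p = 2.48e-06) and -0.20 against saline.

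Nsdhl, the dehydrogenase of this set, was at 17.0, 15.4 and 10.5 CPM in chow livers, 4.40, 5.61, 6.69 and 4.64 in saline livers, and 7.05, 5.37, 4.80 and 4.72 in DT livers. The diet groups overlapped and both were below chow. It fell by 1.42 in saline against chow livers (SE 0.22, adjusted p = 0.0048) and by 1.38 in DT against chow livers (SE 0.22, adjusted p = 0.00356), where the value was -1.37 without DT liver 2. Hsd17b7, the ketoreductase, was at 85.3, 73.1 and 65.9 CPM in chow livers, 33.2, 24.7, 22.4 and 37.8 in saline livers, and 18.9, 23.4, 20.8 and 16.0 in DT livers. Chow livers were above the rest, and DT liver 2 lay above the lowest saline liver. Hsd17b7 fell by 1.34 in saline against chow livers (SE 0.19, adjusted p = 0.00344) and by 1.92 in DT against chow livers (SE 0.19, adjusted p = 0.000549). The smaller fall of 0.58 in DT against saline livers (SE 0.18, adjusted p = 0.0382) ended without chow liver 2, saline liver 1, 2 or 4, or DT liver 1, 3 or 4 (adjusted p from 0.0515 to 0.113), and with total count scaling (-0.25, adjusted p = 0.248), and was called in 9 of the 22 alternatives. Leaving out DT liver 2 gave -0.67 against saline (adjusted p = 0.0131) and -2.01 against chow (adjusted p = 3.19e-05).

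Sc5d, the sterol desaturase, was at 188, 193 and 164 CPM in chow livers, 203, 245, 239 and 201 in saline livers, and 126, 178, 117 and 113 in DT livers. Every saline liver was above every chow and every DT liver. Sc5d fell by 0.73 in DT against saline livers (SE 0.15, adjusted p = 0.0104), and by 0.90 (adjusted p = 0.000125) without DT liver 2. Neither saline against chow (0.29, SE 0.17, adjusted p = 0.364) nor DT against chow (-0.45, SE 0.17, adjusted p = 0.0723) was called, and the latter was called without DT liver 2, at -0.62 (adjusted p = 0.00172). Ebp, the sterol isomerase, was at 152 to 172 CPM in chow, 131 to 152 CPM in saline and 83.0 to 142 CPM in DT livers. It fell by 0.54 in DT against chow livers (SE 0.17, adjusted p = 0.0404), a call that ended without any 1 of the chow or saline livers or DT liver 3 or 4 (adjusted p from 0.0546 to 0.131). It ended too under total count scaling (-0.11, adjusted p = 0.516), with upper quartile factors (adjusted p = 0.088) and with RLE factors (adjusted p = 0.0504), and was made in 8 of the 22 alternatives. Ebp without DT liver 2 fell by 0.68 against chow (adjusted p = 0.00326) and by 0.51 against saline livers (adjusted p = 0.0118), the latter not called with all livers (-0.37, adjusted p = 0.115). Dhcr7, the reductase of the final step, was at 28.7 to 31.1 CPM in chow livers and 12.3 to 19.7 CPM in saline livers, a log2 fold change of -0.94 that missed the threshold (SE 0.25, adjusted p = 0.0548) and passed it without DT liver 2 (adjusted p = 0.00498) and by DESeq2 (adjusted p = 0.0177). Every saline liver was below every chow liver. Its level in the DT livers was 24.3, 10.3, 24.3 and 17.2 CPM. DT livers gave no call against chow (-0.63, adjusted p = 0.0907) or saline (0.30, adjusted p = 0.376), and without DT liver 2 Dhcr7 was called higher than in saline livers, at 0.51 (adjusted p = 0.0285).

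**Figure D3:**
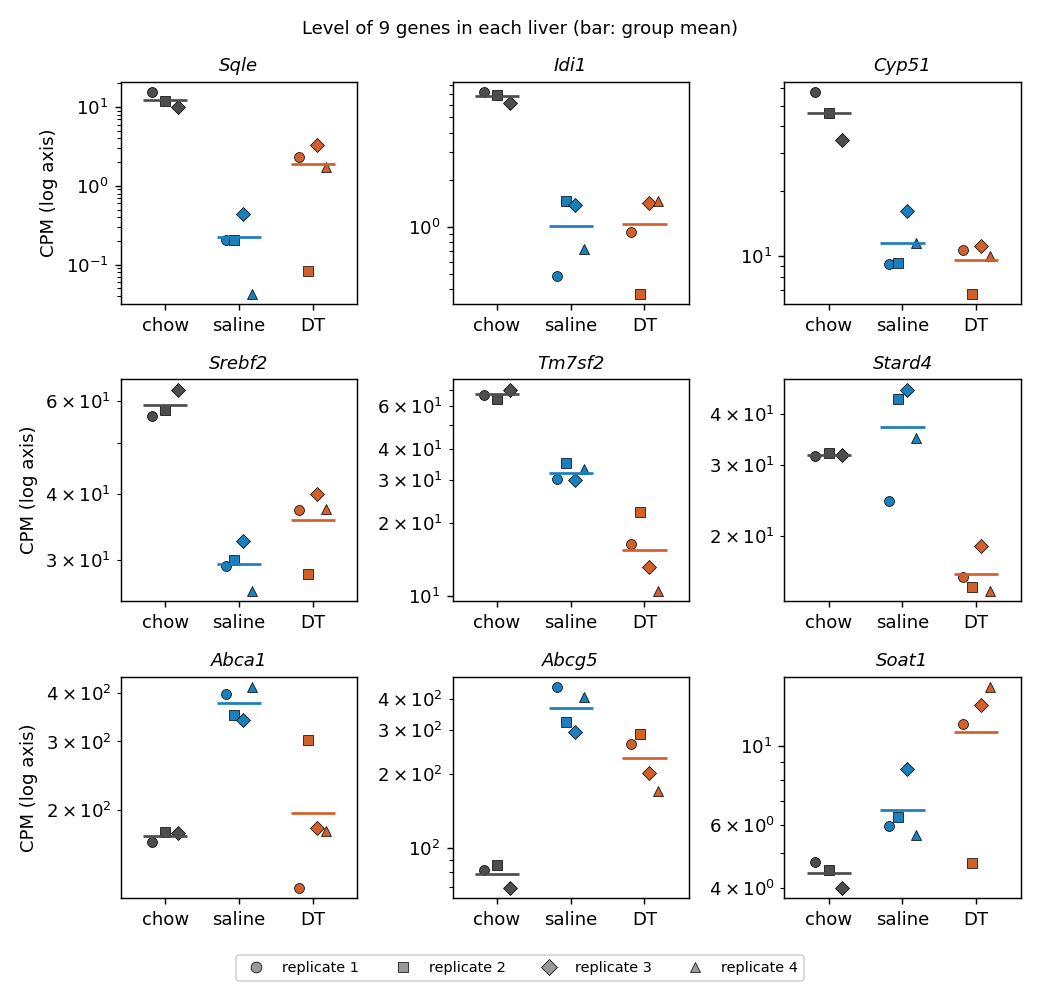
CPM (log axes, not starting at 0, 1 scale per gene) of 9 genes in each chow, saline and DT liver, with the marker giving the replicate number and the bar the group mean. Sqle is lowest in saline livers with DT liver 2 among them, Tm7sf2 steps down from group to group, and Abca1 and Abcg5 are highest in saline livers.

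Of the 4 genes of SREBP2 control, 2 fell in saline against chow livers (Srebf2 and Insig2) and all 4 in DT against chow livers, with a median of -0.79. Srebf2, which encodes SREBP2 and is itself one of its targets, was at 56.2, 57.7 and 63.0 CPM in chow livers, 29.3, 29.9, 32.6 and 26.2 in saline livers, and 37.3, 28.2, 40.0 and 37.4 in DT livers. DT livers 1, 3 and 4 were between the saline and chow livers, and DT liver 2 was among the saline livers. Srebf2 fell by 1.00 in saline against chow livers (SE 0.13, adjusted p = 0.00171) and by 0.72 in DT against chow livers (SE 0.13, adjusted p = 0.00491). The second call ended under total count scaling (-0.24, adjusted p = 0.323), and the value was -0.62 without DT liver 2. Between DT and saline livers Srebf2 was not called (0.28, SE 0.12, adjusted p = 0.109), and without DT liver 2 it was called higher, at 0.38 (adjusted p = 0.00829). With all livers, correction for GC content turned the difference between DT and saline livers to -0.23.

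Scap, the sterol-sensing escort of SREBP2, was at 187, 183 and 168 CPM in chow livers, 142, 122, 115 and 153 in saline livers, and 96.0, 127, 93.1 and 84.9 in DT livers. Chow livers were highest, and DT liver 2 lay in the saline range. Scap fell by 0.84 in DT against chow livers (SE 0.15, adjusted p = 0.00532), by 0.40 (adjusted p = 0.0143) under total count scaling, and by 0.97 (adjusted p = 0.00013) without DT liver 2. DT against saline was not called (-0.41, SE 0.14, adjusted p = 0.059), and without DT liver 2 it was, at -0.54 (adjusted p = 0.0033).

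Insig1 and Insig2, the anchors that hold SCAP in the endoplasmic reticulum, varied more between livers. Insig1 was at 75.6 to 91.6 CPM in chow livers, 44.9, 76.8, 88.7 and 38.1 in saline livers, and 34.6 to 52.5 in DT livers. It fell by 0.85 in DT against chow livers (SE 0.26, adjusted p = 0.039), and the call ended without any 1 of the chow or DT livers (adjusted p from 0.0621 to 0.123), with -0.74 (adjusted p = 0.0621) without DT liver 2. It also ended under total count scaling (-0.36, adjusted p = 0.369), with upper quartile factors (adjusted p = 0.0686), with no filter (adjusted p = 0.0763), with a replicate block (adjusted p = 0.0789) and by limma-voom (adjusted p = 0.052). Insig2, the more abundant per length, was at 471 to 585 CPM in chow livers, 235 to 346 in saline livers, and 305, 468, 234 and 280 in DT livers. It fell by 0.92 in saline against chow livers (SE 0.22, adjusted p = 0.0329) and by 0.73 in DT against chow livers (SE 0.22, adjusted p = 0.0346). The first ended without any 1 of the chow livers or saline liver 2, 3 or 4 (adjusted p from 0.0659 to 0.133), and the second without any 1 of the chow livers, saline liver 2 or 3, or DT liver 1, 3 or 4 (adjusted p from 0.0507 to 0.115). The second ended under total count scaling as well (-0.31, adjusted p = 0.157), and was called in 10 of the 22 alternatives. Without DT liver 2 the DT value against chow was -0.97 (adjusted p = 0.000694).

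All 3 efflux transporters rose in saline against chow livers, where 10 of the 20 synthesis enzymes fell and 0 rose. Of the enzymes not called, Sc5d (0.29) and Acat2 (0.25) were above 0, as the transporters were. Abcg5 and Abcg8 encode the subunits of the pump that secretes sterols into bile, and their genes lie head to head around the interval printed above. Abcg5 was at 81.4, 86.0 and 69.1 CPM in chow livers, 450, 325, 296 and 410 in saline livers, and 263, 289, 201 and 171 in DT livers. The 3 groups did not overlap, with DT livers between chow and saline livers. Abcg5 rose by 2.23 in saline against chow livers (SE 0.22, adjusted p = 0.000443), a 4.70-fold difference, and by 1.55 in DT against chow livers (SE 0.21, adjusted p = 0.00256). Abcg5 was lower in DT than in saline livers by a log2 fold change of -0.68 (SE 0.19, adjusted p = 0.0268), a call not made without saline liver 1 or 4 or DT liver 3 or 4 (adjusted p from 0.0747 to 0.0832), nor with total count scaling (-0.36, adjusted p = 0.0882). The DT values of Abcg5 without DT liver 2 were -0.80 against saline (adjusted p = 0.00469) and 1.43 against chow (adjusted p = 0.000215).

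Abcg8 was at 126, 116 and 115 CPM in chow livers, 450, 333, 293 and 365 in saline livers, and 230, 261, 147 and 131 in DT livers. Its groups did not overlap either, though DT liver 4 was close to chow. Abcg8 rose by 1.60 in saline against chow livers (SE 0.25, adjusted p = 0.0048) and fell by 0.91 in DT against saline livers (SE 0.22, adjusted p = 0.0157), the latter call ending without DT liver 3 (adjusted p = 0.051). Against chow, DT livers missed the threshold (0.69, SE 0.24, adjusted p = 0.0555), and it was called higher without DT liver 3 (0.83, adjusted p = 0.0437) or DT liver 4 (0.87, adjusted p = 0.0291) and in other alternatives, among them DESeq2 (0.72, adjusted p = 0.0223) and total count scaling (1.12, adjusted p = 0.00336). Abcg8 without DT liver 2 gave -1.09 against saline (adjusted p = 0.00144) and 0.51 against chow (adjusted p = 0.0713). Per kb of exon, the level of Abcg5 was 0.828 to 1.03 times that of Abcg8 in chow livers, 1.35 to 1.55 times in saline livers and 1.53 to 1.89 times in DT livers. The annotation gives the pair overlapping exons on opposite strands, and reads there cannot be told apart without a strand setting.

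Abca1, the transporter that loads cholesterol onto apolipoprotein A-I, rose in saline against chow livers and fell in DT against saline livers. Its level was 165, 175 and 174 CPM in chow, 340 to 415 CPM in saline, and 126, 303, 180 and 176 CPM in DT livers. DT liver 2 was near the saline livers, and DT livers 1, 3 and 4 were near chow. Abca1 rose by 1.13 in saline against chow livers (SE 0.24, adjusted p = 0.02), a call that ended without any 1 of the chow livers or saline liver 4 (adjusted p from 0.0505 to 0.0981). Abca1 fell by 0.94 in DT against saline livers (SE 0.22, adjusted p = 0.0141), and by 1.22 (adjusted p = 7.04e-05) without DT liver 2. DT against chow was not called (0.19, SE 0.23, adjusted p = 0.578), turned to -0.09 without DT liver 2, and was called higher under total count scaling (0.61, adjusted p = 0.0192).

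Stard4, a soluble protein that carries sterols between membranes, was the gene of uptake and transfer that changed. It was at 31.4, 32.0 and 31.7 CPM in chow livers, 24.3, 43.5, 46.0 and 34.96 in saline livers, and 15.8, 14.9, 18.8 and 14.6 in DT livers. All 4 DT livers, DT liver 2 included, were below the other 7 livers. Stard4 fell by 1.21 in DT against saline livers (SE 0.18, adjusted p = 0.00407) and by 0.98 in DT against chow livers (SE 0.19, adjusted p = 0.00594), and saline against chow was not called (0.23, SE 0.19, adjusted p = 0.539). The call against chow ended under total count scaling (-0.51, adjusted p = 0.0782). Stard4 without DT liver 2 gave -1.18 against saline (adjusted p = 0.000739) and -0.95 against chow (adjusted p = 0.00335). Mylip, the ubiquitin ligase that removes lipoprotein receptors, was at 20.2 to 27.6 CPM over all 11 livers with no call in any comparison, with or without DT liver 2. With correction for GC content Mylip was called lower in DT livers, against saline (-0.35, adjusted p = 0.0418) and chow (-0.48, adjusted p = 0.0154).

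Of the esterification enzymes, Soat1, the form found in macrophages and most other cells, was the one called. It was at 4.74, 4.48 and 3.99 CPM in chow livers, 5.95, 6.30, 8.63 and 5.62 in saline livers, and 11.5, 4.70, 13.0 and 14.7 in DT livers. DT livers 1, 3 and 4 were above all other livers, and DT liver 2 was in the chow range. Soat1 rose by 1.32 in DT against chow livers (SE 0.32, adjusted p = 0.0154), and by 1.57 (adjusted p = 8.71e-05) without DT liver 2. The call ended without any 1 of the 3 chow livers (adjusted p from 0.0512 to 0.0623) and by limma-voom (adjusted p = 0.0527). Soat1 was not called between DT and saline livers with all livers (0.73, SE 0.29, adjusted p = 0.0893) and was called higher without DT liver 2 (0.98, adjusted p = 0.000901). Beside this, the 8 macrophage and monocyte markers summed to 207 to 505 CPM in DT livers. The sums were 173 to 310 CPM in saline livers and 152 to 250 CPM in chow livers. In DT against saline livers 4 of the 8 rose and 1, Adgre1, fell. In DT against chow livers 6 rose and 0 fell. The part of macrophages and monocytes in the Soat1 result was not tested. Soat2, the form of hepatocytes and gut, was at 30.9 to 42.7 CPM over all livers and was not called, with or without DT liver 2. Under total count scaling Soat2 was called higher in DT livers, against saline (0.54, adjusted p = 0.0101) and chow (0.68, adjusted p = 0.00477).

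Levels between genes can be compared per kb of exon. In chow livers Insig2 was highest of the 31 at 154 ± 16.8 CPM per kb (SD, n = 3), above Ebp at 69.9 ± 4.31, Sc5d at 37.3 ± 3.25 and Abcg8 at 31.8 ± 1.65. Abcg8, Abcg5 at 29.1 ± 3.23 and Insig1 at 26.3 ± 2.86 lay within about 1 SD of their neighbours in that order. Lowest were Fdps at 0.669 ± 0.127 and Soat1 at 0.45 ± 0.0388. In saline livers Abcg5 was highest at 137 ± 26.5 CPM per kb (SD, n = 4), with Abcg8 next at 96.1 ± 17.8, and Sqle lowest at 0.0401 ± 0.0294. In DT livers Insig2 at 92.7 ± 29.4 and Abcg5 at 85.2 ± 20.04 led with overlapping spreads, and Fdps at 0.253 ± 0.067, Idi1 at 0.298 ± 0.145 and Sqle at 0.339 ± 0.245 were lowest with overlapping spreads. The exon lengths come from an annotation of an earlier build and count all annotated exons, so a gene used in a short form is understated. Hmgcs1, Idi1, Ggps1, Lss, Cyp51, Lbr and Scap overlap a gene on the opposite strand in that annotation, and reads there cannot be told apart without a strand setting. Of the 50-base words of Fdps and Fdft1, 11.7% and 10.9% occur in other genes. As for Idi1, reads of these genes could have been split or dropped.

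**Figure D4:**
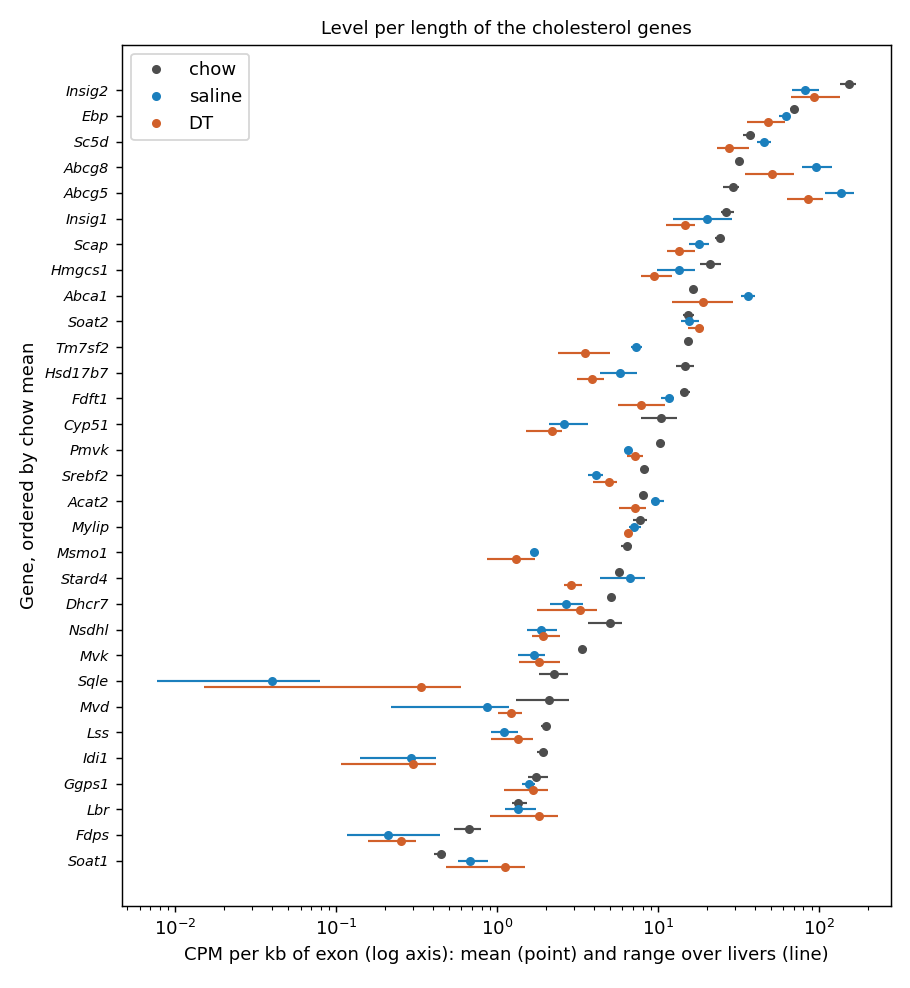
Level per kb of exon (CPM per kb, log axis) of the 31 genes, ordered by the chow mean; points are group means and lines run from the lowest to the highest liver. Insig2 leads in chow livers, Abcg5 in saline livers, and Sqle spans the widest range between groups.

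Genes around the pathway were read from 5 further lists. Of 8 genes of SREBP cleavage and INSIG turnover, 2 rose and 1 fell in saline against chow livers. Rnf145, a sterol-responsive ubiquitin ligase, was at 14.3 ± 1.11 CPM in chow (SD, n = 3) and 39.0 ± 10.3 CPM in saline livers (SD, n = 4), and rose by 1.45 (SE 0.21, adjusted p = 0.0038). Erlin1, part of a complex that restrains SREBP in the endoplasmic reticulum, rose by 0.93 (SE 0.13, adjusted p = 0.0038). Ufd1, which helps extract ubiquitylated proteins from that membrane, fell by 0.40 (SE 0.10, adjusted p = 0.0384) and was called in 4 of the 11 refits without 1 liver, with the highest adjusted p at 0.141 without chow liver 2. Rnf145 and Erlin1 were higher in DT against chow livers too, by 1.44 and 0.68, and Ufd1 was lower, with a log2 fold change of -0.39. By edgeR 0 of the 8 were called between DT and saline livers, with 1 lower at an unadjusted p below 0.05, 1 by DESeq2 and 0 by limma-voom.

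Of 9 other SREBP target genes, 0 were called in saline against chow livers by edgeR, with 2 higher and 3 lower at an unadjusted p below 0.05, 1 higher and 1 lower by DESeq2, and 0 by limma-voom. Acss2, the cytosolic acetyl-CoA synthetase, fell by 0.57 (SE 0.14, adjusted p = 0.0153) and Fads2, a fatty acid desaturase, by 0.82 (SE 0.20, adjusted p = 0.0157) in DT against saline livers. The Acss2 call ended without DT liver 3 (adjusted p = 0.0536). The median of this list was -0.19 in saline against chow livers, where that of the 20 synthesis enzymes was -0.96.

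Of 8 LXR and oxysterol genes, Srebf1, an LXR target, rose and Cyp27a1, a mitochondrial sterol hydroxylase, fell in saline against chow livers. Srebf1 was at 36.8 ± 4.36 CPM in chow (SD, n = 3), 313 ± 111 CPM in saline (SD, n = 4) and 187 ± 121 CPM in DT livers (SD, n = 4), and DT liver 2, at 366 CPM, was within the saline range. The Cyp27a1 fall of 0.99 (SE 0.22, adjusted p = 0.0248) held in 5 of the 11 refits without 1 liver, with the highest adjusted p at 0.0999 without chow liver 1. Cyp7b1, an oxysterol hydroxylase of bile acid synthesis, fell by 1.70 in DT against saline livers (SE 0.47, adjusted p = 0.0266), as did the phospholipid remodelling gene Lpcat3 by 0.44 (SE 0.14, adjusted p = 0.0391). Those calls held in 6 and 1 of the 11 refits, with the highest adjusted p at 0.0789 without saline liver 4 and at 0.115 without DT liver 3. In DT against chow livers 3 rose (Srebf1, the transporter gene Abcg1 and Ch25h, a cholesterol hydroxylase of immune cells) and 2 fell (Cyp27a1 and Cyp7b1). Ch25h was at 0.25 to 0.395 CPM in DT livers and at no more than 0.046 CPM in chow livers, which is below 3 counts, and it was at 0 in chow livers 1 and 2 and saline liver 4.

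Of 10 genes of the isoprenoid branches that lead to ubiquinone, dolichol and prenylated proteins, 0 were called by edgeR in saline against chow livers or DT against saline livers. At an unadjusted p below 0.05 there was 1 higher in the first and 1 lower in the second, and DESeq2 and limma-voom called 0 in both. Pdss1, of ubiquinone side-chain synthesis, rose in DT against chow livers by 0.93 (SE 0.27, adjusted p = 0.0304), in 7 of the 11 refits, with the highest adjusted p at 0.12 without chow liver 3.

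Of 14 genes of lipoprotein uptake and sterol trafficking, 2 rose in saline against chow livers. Vldlr, a lipoprotein receptor, was at 1.07 ± 0.912 CPM in chow (SD, n = 3) and 9.37 ± 1.96 CPM in saline livers (SD, n = 4), and rose by 3.13 (SE 0.46, adjusted p = 0.00381). Gramd1b, which moves cholesterol from the plasma membrane inward, rose by 1.62 (SE 0.31, adjusted p = 0.0122), and it rose again by 1.28 in DT against saline livers (SE 0.27, adjusted p = 0.01). The first Gramd1b call held in 8 of the 11 refits, with the highest adjusted p at 0.0559 without chow liver 2. Between DT and saline livers Gramd1a rose by 0.74, the receptor gene Lrp1 fell by 0.42 and Nceh1, a cholesterol ester hydrolase, fell by 0.76 (adjusted p = 0.0149, 0.0381 and 0.0134). Of these, Lrp1 was called in 2 of the 11 refits, with the highest adjusted p at 0.113 without DT liver 3, Gramd1a in 10, ending without saline liver 2 (adjusted p = 0.0504), and Nceh1 in all 11. Without DT liver 2, more genes of these lists were called in DT against saline livers, and so were more of all genes (40.3%, against 21.9%). Of all genes 22.6% were higher and 17.7% lower. Of the 8 genes of SREBP cleavage and INSIG turnover 0 were higher and 2 lower, and of the 9 other SREBP targets 0 and 3. The counts were 0 and 5 of the 8 LXR and oxysterol genes, 0 and 3 of the 10 isoprenoid genes, and 2 and 4 of the 14 uptake and trafficking genes.

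Markers of some other cells differed between the groups. Of 5 endothelial cell markers, 1, Stab2, fell in DT against saline livers and 1, Clec4g, in DT against chow livers. Of 5 lymphocyte markers, 1, Cd3g, rose in DT against chow livers and 0 were called in DT against saline livers by edgeR. At an unadjusted p below 0.05, 2 were higher there, with 1 by DESeq2 and 0 by limma-voom. Neither list had a call in saline against chow livers. The 6 Kupffer cell markers summed to 111 to 184 CPM in DT livers against 253 to 370 CPM in the other 7, and all 6 fell in DT against saline livers. Stellate cell and fibroblast markers summed to 104 to 140 CPM in chow, 144 to 286 CPM in saline and 234 to 673 CPM in DT livers, and 6 of 7 rose in DT against saline livers. Bile duct markers summed to 20.3 to 32.6 CPM in chow, 19.9 to 45.2 CPM in saline and 27.8 to 395 CPM in DT livers, and all 5 rose in DT against saline livers; Krt7 was at 0 in chow liver 3. Hepatocyte markers summed to 101400 to 122900 CPM in chow, 83840 to 98810 CPM in saline and 67750 to 90460 CPM in DT livers, and 0 of 8 were called in DT against saline livers by edgeR, with 1 higher at an unadjusted p below 0.05 and 0 by DESeq2 and limma-voom. Without DT liver 2, 3 of the 8 were called lower there (17.7% of all genes) and 0 higher (22.6%). The 3 were Serpina1c (-1.46, adjusted p = 1.89e-05), Ttr (-0.84, adjusted p = 0.00392) and Fgb (-0.43, adjusted p = 0.0267). Of the others, which were not called, Tat (0.91), Hpx (0.34) and Cps1 (0.29) were above 0, and Apoa1 (-0.44) and Alb (-0.25) below. With all livers Tat fell in saline against chow livers (-1.61, adjusted p = 0.0258), and Apoa1 (-1.09, adjusted p = 0.00733) and Fgb (-0.62, adjusted p = 0.0461) fell in DT against chow livers. Tat and Fgb were called in 5 and 1 of the 11 refits without 1 liver, and Apoa1 in all 11. The part of these cells in the differences of the cholesterol genes was not tested.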

How the data were processed

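RNA from 11 whole mouse livers was measured by sequencing. The authors deposited raw counts per gene, 1 column per library. Per the submitters' processing notes, FastQC, STAR, featureCounts and GRCm39 were used; versions, annotation and strand setting are not given in the sources used here. Of counts from 1 to 20, 76.6% to 81.5% were even, so both mates of a pair may have been counted, and halved counts were tried. The labels give numbered replicates without naming animals, and p-values measure the spread between these samples. No pair of libraries in a group held identical counts.

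Of 28842 genes with any count, filterByExpr kept 17038. The model was edgeR's quasi-likelihood fit (edgeR 4.0.16, limma 3.58.1, R 4.3.3) with TMM factors, robust estimates and 1 mean per group over all 3 groups. It left 8 residual degrees of freedom, and the common biological coefficient of variation was 30.1%. Two-sided p-values were adjusted by the Benjamini-Hochberg method for each comparison separately, with a threshold of 0.05. Counting intervals and the lower limit of 3 counts cover counting error only. The heat map used a pseudocount of 0.05 CPM. Gene calling was checked on simulated data for each comparison. In saline against chow it recovered 37% of the planted 2-fold and 78% of the planted 4-fold changes, with 16547 genes tested. In DT against saline the values were 49% and 74% with 16550 tested, and in DT against chow 33% and 64% with 16573. Changes were planted in a smaller share of genes than was called in the data, so the rates there may differ. A gene not called may still differ by such amounts.

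Alternatives were RLE, upper quartile and total count scaling, DESeq2 1.42.0, limma-voom, no filter, 1 CPM in 3 libraries, only the compared groups, a replicate block, halved counts and each library left out. Correction for GC content (loess, span 0.3) was chosen after seeing the data. The members and lists were chosen with earlier results of these data known. Values in every liver are given for the 16 called genes with the smallest adjusted p and at least 1 gene per role, and ranges for the others. Beyond this rule, values per liver of Abca1, Lbr, Dhcr7, Insig1 and Insig2, and more than 3 called genes of a context list, were given after they were seen. A result for 1 context gene is not reported here. Exon lengths, shared 50-base words and overlaps come from GENCODE M21 on GRCm38, an earlier build than the alignment, in which 94.1% of genes matched.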

Additional observations from a re-analysis of the deposited data

Results flagged for a closer look

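Fdps in saline liver 3 was flagged because it lay far from the other saline livers, at 1.87 CPM against 0.489 to 0.639 CPM. Its gap to the nearest of them, divided by the range of the group, was 0.891, above the critical value of 0.829 for 4 samples. This was 1 of the 62 groups of 4 livers tested over the 31 genes, and chance flags about 1 in 20 groups.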

How the results depend on the processing

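In saline against chow livers, 11 to 20 genes were called under the alternatives, against 15, while the share of all genes called ran from 1.62% to 20.1%, against 5.58%. In DT against saline livers 10 were called (1 higher, 9 lower). Only the compared groups gave 5 (0 higher, 5 lower; 14.5% of all genes, against 21.9%), total count scaling 6 higher and 5 lower, and no filter and limma-voom 0 higher each, against 3 at an unadjusted p below 0.05 in the edgeR fit of all livers. Refits without 1 liver gave 4 to 17 calls, 0 to 6 higher and 4 to 11 lower, with 5 calls without saline liver 1 or 4, 6 without saline liver 2 or DT liver 4, 17 without DT liver 2 and 4 without DT liver 3. Over the same refits the share of all genes called ran from 10.5% without saline liver 2 to 40.3% without DT liver 2. In DT against chow livers 21 were called (2 higher, 19 lower). Total count scaling gave 5 higher and 9 lower, and limma-voom 1 higher. Refits without 1 liver gave 13 to 22 calls, 1 to 3 higher and 12 to 19 lower, the fewest without chow liver 2, and 10.1% to 40.3% of all genes, against 23.0%. The cause of these changes was not tested.

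The replicate number as a block gave 13 calls in DT against chow livers (1 higher, 12 lower), 12 in saline against chow and 8 in DT against saline. It called 13.0%, 3.28% and 16.7% of all genes in these comparisons, against 23.0%, 5.58% and 21.9%. The labels do not say that the numbers pair the livers. Deviations from the group means in livers with the same number correlated between -0.164 and 0.182. In livers with different numbers they correlated between -0.257 and 0.217. The ranges overlap, so these values cannot show whether the numbers pair the livers.

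Direction changed in 46 single-gene values, all of genes that were not called in either fit. In saline against chow, Lbr (-0.0012) was 0.0186 with RLE, 0.0168 with upper quartile, 0.13 with total count scaling, 0.0143 with no filter, 0.0029 with halved counts, 0.0128 with only the compared groups, 0.0192 by DESeq2 and -0.12 to 0.10 in refits without 1 liver. Mylip was 0.0136 with total count scaling, and Soat2 was -0.0553 to 0.0785 in refits without 1 liver. In DT against saline, GC correction gave -0.36 for Mvk, -0.30 for Pmvk, -0.0029 for Mvd, -0.0005 for Fdps, -0.0185 for Nsdhl, -0.0632 for Dhcr7, -0.23 for Srebf2 and -0.18 for Soat2. Total count scaling gave 0.0986 for Cyp51, 0.0147 for Msmo1 and 0.20 for Mylip. Over the refits without 1 liver, values ran from -0.0781 to 0.23 for Mvk, -0.18 to 0.32 for Idi1, -0.0434 to 0.25 for Ggps1, -0.0964 to 0.16 for Nsdhl and -0.0488 to 0.32 for Insig2. In DT against chow, total count scaling gave 0.29 for Acat2, 0.40 for Ggps1 and 0.21 for Mylip, upper quartile 0.0286 for Ggps1, GC correction -0.12 for Soat2, and refits without 1 liver -0.18 to 0.0944 for Ggps1 and -0.0937 to 0.36 for Abca1. The median of all genes also moved by more than 0.1 with GC correction, to -0.16 in DT against saline and -0.22 in DT against chow livers. Sqle had 2 to 24 counts per saline liver, so depth limits its level there.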
